A study of Mus musculus with 4 samples.

Results

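The GIMAP proteins (GTPases of immunity-associated proteins) are small GTP-binding proteins made mainly by lymphocytes, and their genes lie side by side in a single cluster. Members differ in where they sit in the cell and in what is known of them, but loss of some of them, such as *Gimap5* or *Gimap1*, leaves mice with few mature T cells, so the family is known for its part in lymphocyte survival. Here the 8 mouse genes *Gimap1*, *Gimap3*, *Gimap4*, *Gimap5*, *Gimap6*, *Gimap7*, *Gimap8* and *Gimap9* were taken by gene symbol from count tables of 55367 symbols, and all 8 were present and passed the filter on low counts. They are described in splenic CD4+ T cells of C57BL/6 mice with and without a conditional deletion of *Satb1*, the gene of a chromatin organizer that regulates transcription in T cells.

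The data are 4 RNA-seq libraries, 2 labelled WT and 2 labelled *Satb1* conditional knockout (cKO), from untreated sorted cells. The series names *Satb1* F/F mice with ThPOK-cre or E8I-cre, and the study used the *Thpok-cre* driver, which acts from CD4 lineage commitment onward, for CD4+ cells. The labels of these libraries name neither the Cre nor the age or sex of the mice, and do not say whether WT mice carried floxed alleles or Cre. The study calls the libraries of a genotype biological replicates, and the labels do not say which mice they came from, so p-values measure the spread between these libraries. For each gene that spread is estimated with help from the spread of other genes.

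Total gene counts lay between 4495902 and 6555699 per library. *Satb1*, the targeted gene, had 865 and 979 CPM (counts per 1000000, on scaled library sizes) in the libraries labelled WT and 941 and 844 CPM in those labelled cKO (log2 change -0.05, SE 0.12, edgeR adjusted p = 0.877). The values overlapped. The tables hold counts of whole genes, which also take reads from exons that a conditional deletion leaves in place, so this count does not check the labels, and WT and cKO below mean the libraries so labelled. The sex-linked *Xist* split with the labels, at 830 and 945 CPM in WT against 1.71 and 1.27 CPM in cKO, and so did the Y-linked *Ddx3y*, at 0 counts in both WT libraries and 525 and 597 counts in cKO, and sex therefore cannot be told apart from genotype in any difference below. Cells sorted as CD4+ T cells had their defining transcripts, with *Cd4* at 1267 CPM and *Cd3e* at 803 CPM on average in WT and 1226 and 873 CPM in cKO.

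The genes fill 124 kb of chromosome 6 (GRCm38, 48647234 to 48770851), 6 of them on the plus strand and 2, *Gimap6* and *Gimap3*, on the minus strand. From left to right along the plus strand the order was *Gimap8*, *Gimap9*, *Gimap4*, *Gimap6*, *Gimap7*, *Gimap1*, *Gimap5* and *Gimap3*. The annotation places 5 other genes in the same span. These are the pseudogene *Gm44262*, the non-coding transcripts *Gimap1os*, *Gm44226* and *4833403J16Rik*, and *Gm28053*, a gene model that joins exons of *Gimap7*, *Gimap1* and *Gimap5*. *Gimap1os* runs antisense to *Gimap1* and covers 1107 of its 3073 exonic bases, or 36.0%, and no source used here says whether counting was strand-specific, so reads of this pair cannot be told apart where they overlap and the values of *Gimap1* are uncertain. *Gm28053* covers 198 exonic bases of *Gimap1*, 153 of *Gimap5* and 81 of *Gimap7*, where reads fit more than 1 gene. *Gimap3*, *Gimap4*, *Gimap6*, *Gimap8* and *Gimap9* had no exonic base shared with another annotated gene.

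*Gimap3* and *Gimap5* are the closest relatives of the family. Both proteins carry a membrane anchor at the C-terminal end, and GIMAP5 is found on lysosomes. Their coding sequences were identical at 90.4% of 895 aligned bases, against 66.6% for the next pair, *Gimap7* and *Gimap9*. The sequences below show how far a read can tell them apart. The longest stretch common to both spans 140 bases, in *Gimap3* at chr6:48765681-48765820 on the minus strand and in *Gimap5* at chr6:48752684-48752823 on the plus strand (GRCm38), where a read of 50 bases fits either gene.
Gimap3 and Gimap5: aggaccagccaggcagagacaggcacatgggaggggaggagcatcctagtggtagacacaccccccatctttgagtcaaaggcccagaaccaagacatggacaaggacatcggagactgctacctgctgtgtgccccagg
A stretch of 100 coding bases nearer the 3′ end held 16 differences, marked in capitals, in *Gimap3* at chr6:48765186-48765285 on the minus strand and in *Gimap5* at chr6:48753219-48753318 on the plus strand.
Gimap3: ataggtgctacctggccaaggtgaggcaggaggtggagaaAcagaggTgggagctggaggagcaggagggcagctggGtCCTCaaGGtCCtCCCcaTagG
Gimap5: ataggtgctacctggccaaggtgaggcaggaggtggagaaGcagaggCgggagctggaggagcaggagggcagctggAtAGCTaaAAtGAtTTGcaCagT
Over all annotated transcripts, 190 windows of 50 bases were shared by the pair, which is 7.52% of the windows of *Gimap3* and 4.53% of those of *Gimap5*. No window of *Gimap4*, *Gimap8* or *Gimap9* was found in a transcript of any other gene.

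In CPM, *Gimap3* was the highest of the family in every library. It had 998 and 1125 CPM in the WT libraries and 1065 and 1077 CPM in the cKO libraries, and the cKO values lay between the WT values. The log2 change (cKO over WT) came to 0.01 (SE 0.12, edgeR adjusted p = 0.971). By average level it ranked 60 of the 12403 genes tested. *Gimap5*, whose loss causes lymphopenia in mice and rats, had 100.1 and 100.6 CPM in WT and 105 and 95.7 CPM in cKO. The genotypes overlapped, and the log2 change came to 0.002 (SE 0.11, edgeR adjusted p = 0.998). Its fold of cKO over WT had a 95% interval from 0.85 to 1.18.

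**Figure D1:**
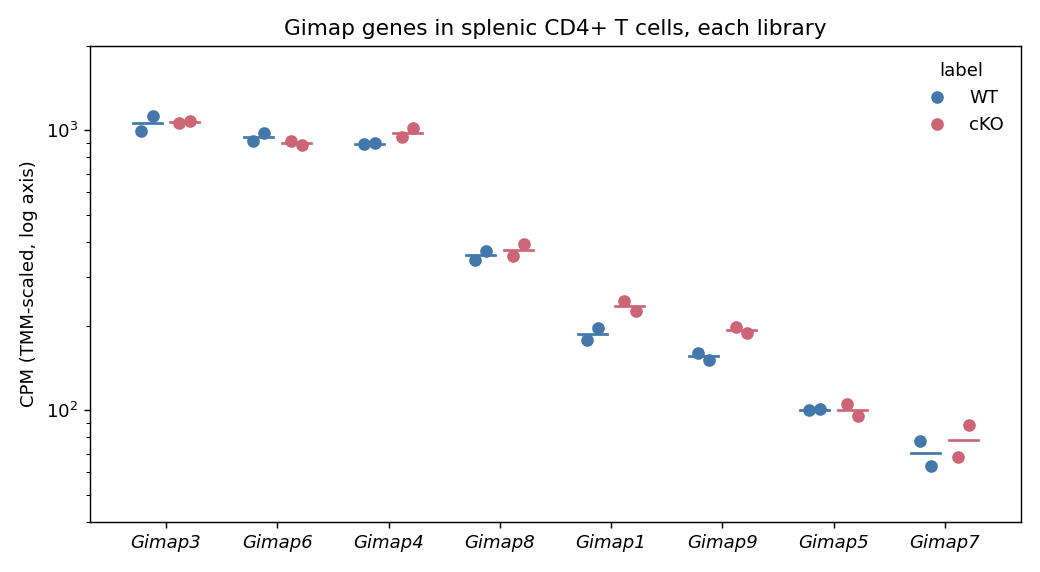
CPM of each Gimap gene (log axis) in the 2 WT libraries (blue) and the 2 cKO libraries (red), with a bar at the mean of each genotype. *Gimap3*, *Gimap6* and *Gimap4* lie between 886 and 1125 CPM, *Gimap7* is lowest between 63.4 and 88.5 CPM, and for *Gimap1*, *Gimap9* and *Gimap4* both cKO points lie above both WT points.

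With all 4 libraries, *Gimap1* had the largest log2 change of the 8, but *Gimap9* (0.36) and *Gimap7* (0.31) exceeded it (0.28) without WT 1, and *Gimap7* (0.32) did so without cKO 1 (0.28). It is needed for the survival of mature T and B cells. It had 178 and 196 CPM in the WT libraries and 245 and 227 CPM in the cKO libraries, and both cKO libraries were above both WT libraries. The level was 187 ± 12.3 CPM (SD, n = 2) in WT and 236 ± 12.9 CPM (SD, n = 2) in cKO. The log2 change of 0.33 (SE 0.10) did not pass the threshold, an edgeR adjusted p under 0.05, at 0.110. The fold of 1.26 had a 95% interval from 1.08 to 1.48. The antisense transcript *Gimap1os*, which shares part of its exons, had 108 and 106 CPM in WT and 121 and 130 CPM in cKO, or 0.23 on the log2 scale (edgeR adjusted p = 0.267).

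*Gimap9*, which lies between *Gimap8* and *Gimap4*, came next and has no such overlap. It had 160.1 and 151 CPM in WT and 198 and 189 CPM in cKO, and again the genotypes did not overlap. The log2 change was 0.31 (SE 0.10, edgeR adjusted p = 0.117), and the fold of 1.24 had an interval from 1.07 to 1.45. Both *Gimap1* and *Gimap9* passed the threshold when cKO 2 was left out, with adjusted p = 0.00453 and 0.0126 in that edgeR fit, which called 12.8% of all genes tested and 6.69% higher in cKO, and did not when any other library was left out. With 1 library left in a genotype, that library is assumed to vary like the others.

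*Gimap4* and *Gimap6* were next in level to *Gimap3*. *Gimap4* modulates the death of T cells and had 893 and 899 CPM in WT and 946 and 1015 CPM in cKO. Both cKO libraries were higher, but the log2 change was 0.13 (SE 0.11, edgeR adjusted p = 0.580). *Gimap6*, which acts in autophagy and binds the ATG8 protein GABARAPL2, was the only member with a lower mean in cKO. It had 912 and 981 CPM in WT and 916 and 886 CPM in cKO, overlapping values with a log2 change of -0.07 (SE 0.11, edgeR adjusted p = 0.791).

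*Gimap8* is the longest member, with more than one GTPase domain in tandem and 2064 annotated coding bases against 873 to 984 in the others. It had 343 and 371 CPM in WT and 354 and 392 CPM in cKO, with a log2 change of 0.07 (SE 0.10, edgeR adjusted p = 0.795), and the genotypes overlapped. *Gimap7*, a partner able to stimulate GTP hydrolysis when it dimerizes, was the lowest in CPM and the most variable between replicates. It had 77.4 and 63.4 CPM in WT and 68.3 and 88.5 CPM in cKO, so that each genotype held a higher and a lower library. Its log2 change was 0.15 (SE 0.15, edgeR adjusted p = 0.665), and ran from -0.05 without cKO 2 to 0.32 without cKO 1.

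The edgeR quasi-likelihood test called 4.30% of the 12403 genes tested, 2.35% higher and 1.95% lower in cKO, and 0 of the 8 Gimap genes. At an unadjusted p under 0.05 there were 2 Gimap genes, *Gimap1* and *Gimap9*, where 19.1% of all genes tested passed. DESeq2, which called 3.51% of the genes it gave an adjusted p, and the edgeR exact test, which called 8.42% of all genes tested, also called 0 of the 8. The intervals bound the size of a difference that these libraries leave room for. For all 8 genes the 95% interval of the fold lay between 0.80 and 1.48, and thus within 1.5-fold in either direction. A miss of the threshold does not show that the levels were equal.

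The libraries of the genotypes did not overlap for 3 of the 8 genes, all higher in cKO, where 50.3% of all genes tested did not overlap and 24.8% did so with cKO higher. The median log2 fold change was 0.10 over the Gimap genes and -0.002 over all genes tested, with 7 of the 8 above zero. This count is not stable. *Gimap7* (-0.05) and *Gimap8* (-0.008) were below zero without cKO 2, and *Gimap3* and *Gimap5* changed sign under other alternatives. The 8 values ran from -0.07 to 0.33, a range that held 45.8% of all genes tested. In size of change, *Gimap1* exceeded 71.4% and *Gimap9* 68.8% of all genes tested.

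**Figure D2:**
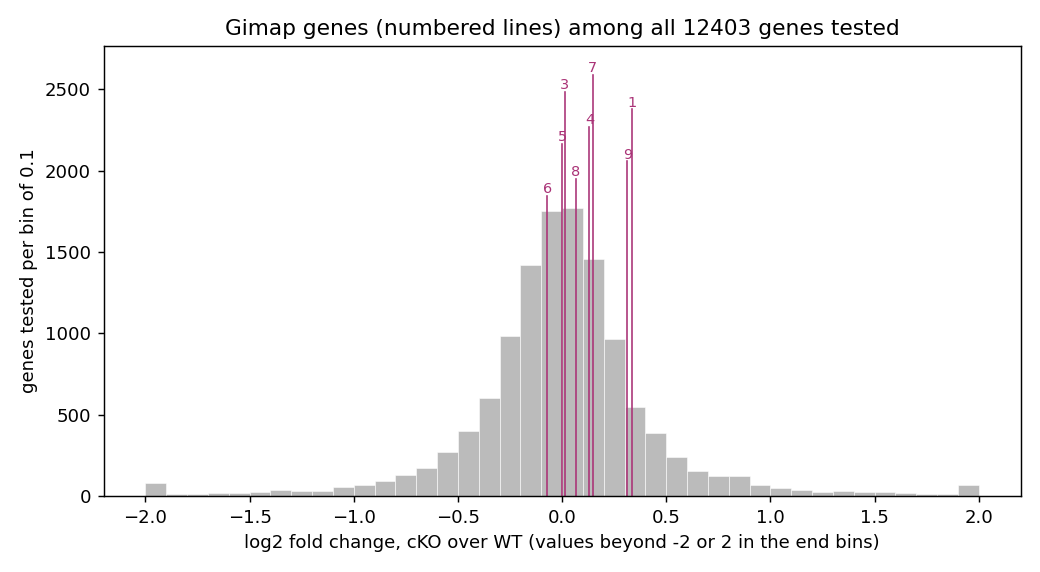
Distribution of log2 fold change (cKO over WT) over the 12403 genes tested, in bins of 0.1, with a numbered line at the value of each Gimap gene. The lines run from -0.07 (*Gimap6*) to 0.33 (*Gimap1*), a range that holds 45.8% of all genes tested.

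Summed over the 8 genes, the level was 3662 and 3886 CPM in the WT libraries and 3899 and 3970 CPM in the cKO libraries, or between 0.367% and 0.405% of all gene counts. On this scale both cKO sums were above both WT sums, but as a share of all gene counts the genotypes overlapped, with WT 2 at 0.387% above cKO 1 at 0.382%. The log2 ratio of the genotype means was 0.06, and it was 0.02 without WT 1 and 0.10 without WT 2. No test was made of this sum. *Gimap3*, *Gimap4* and *Gimap6* together made up between 75.0% and 77.3% of the summed count in each library. The share of *Gimap1* was 4.87% and 5.04% in WT and 6.28% and 5.71% in cKO, and the exact 95% binomial intervals of WT 2 (4.7205% to 5.3761%) and cKO 2 (5.3815% to 6.0509%), the closest pair, did not overlap. The share of *Gimap6* was 24.9% and 25.2% in WT and 23.5% and 22.3% in cKO. Such intervals cover counting error only and leave out variation between libraries, so they do not test genotype. Intervals of replicates also failed to overlap, as for *Gimap3* in WT 1 (26.7% to 27.8%) and WT 2 (28.3% to 29.6%). For the Gimap counts, chi-square per degree of freedom between replicates was 8.48 in WT and 9.34 in cKO. No molecular identifiers were used, and reads are not independent molecules.

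**Figure D3:**
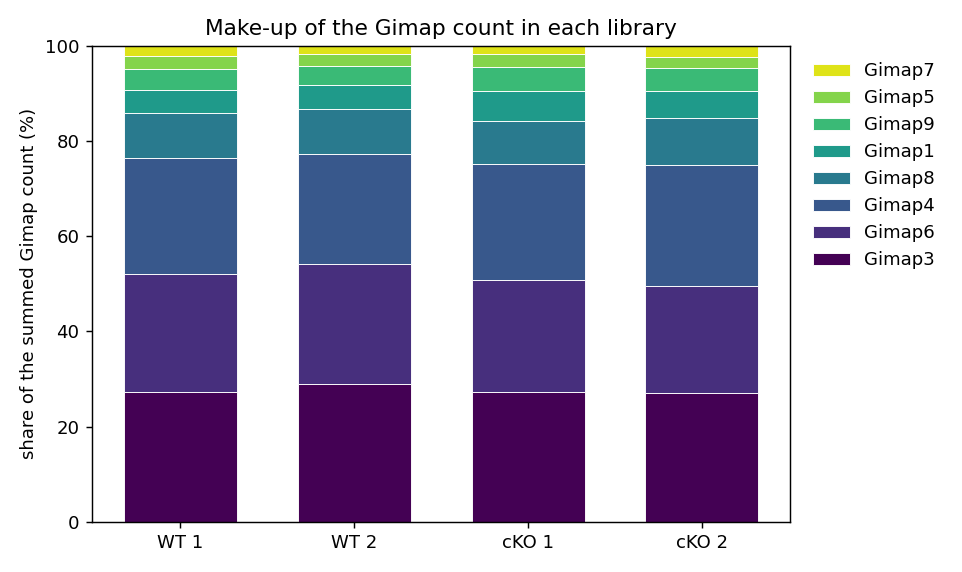
Share of each Gimap gene (%) in the summed Gimap count of each of the 4 libraries. *Gimap3*, *Gimap6* and *Gimap4* form the lower 75.0% to 77.3% of every bar.

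Counts of a long gene exceed those of a short gene at equal abundance, so levels of different members were compared per kilobase of annotated exon (CPM divided by the length in kilobases, RPKM). On that scale *Gimap4* was highest, with 486 and 489 in WT and 515 and 553 in cKO, above *Gimap3*, which ranged from 387 to 436.5. *Gimap6* followed with 253 to 281. A second tier held *Gimap9*, from 92.1 to 121, and *Gimap8*, from 92.8 to 106, whose ranges overlapped, so their order is not set. *Gimap1* ranged from 58.1 to 79.7 and *Gimap7* from 27.3 to 38.1. *Gimap5* was lowest, from 23.1 to 25.3 in the 4 libraries, and the mean of *Gimap4* was 21.1 times as high, or 12.1 times with the longest transcript as the length. All neighbours in this order other than *Gimap9* and *Gimap8* had separate ranges over the 4 libraries. The place of *Gimap1* is uncertain, since *Gimap1os* covers 36.0% of the exonic bases in its length and reads fitting more than 1 gene enter no count. With the longest transcript as the length, *Gimap1* moved up to the tier of *Gimap9* and *Gimap8*, and *Gimap3* overlapped *Gimap4*.

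To show the starts of the genes with the highest levels and with the largest log2 changes, the 250 bases before the annotated start of *Gimap3*, *Gimap4*, *Gimap1* and *Gimap9* are given 5′ to 3′ on the strand of the gene, from RefSeq on GRCm38.p6. They lie at chr6:48770852-48771101 (minus), chr6:48684328-48684577, chr6:48738797-48739046 and chr6:48675885-48676134 (plus). SATB1 is known to prefer DNA rich in A and T.
Gimap3: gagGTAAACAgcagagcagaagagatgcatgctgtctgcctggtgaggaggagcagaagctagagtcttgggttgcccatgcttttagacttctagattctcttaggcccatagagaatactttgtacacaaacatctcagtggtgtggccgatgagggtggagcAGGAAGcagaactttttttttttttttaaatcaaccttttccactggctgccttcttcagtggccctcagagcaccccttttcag
Gimap4: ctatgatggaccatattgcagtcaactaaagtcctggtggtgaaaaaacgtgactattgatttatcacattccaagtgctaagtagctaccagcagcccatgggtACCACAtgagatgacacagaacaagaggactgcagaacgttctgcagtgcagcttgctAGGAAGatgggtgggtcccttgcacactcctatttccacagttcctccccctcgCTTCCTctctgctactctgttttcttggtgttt
Gimap1: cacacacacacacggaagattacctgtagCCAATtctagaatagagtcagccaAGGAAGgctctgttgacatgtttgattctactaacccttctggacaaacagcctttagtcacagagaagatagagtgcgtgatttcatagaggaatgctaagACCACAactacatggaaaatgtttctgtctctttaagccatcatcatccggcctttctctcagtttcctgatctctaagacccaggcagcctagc
Gimap9: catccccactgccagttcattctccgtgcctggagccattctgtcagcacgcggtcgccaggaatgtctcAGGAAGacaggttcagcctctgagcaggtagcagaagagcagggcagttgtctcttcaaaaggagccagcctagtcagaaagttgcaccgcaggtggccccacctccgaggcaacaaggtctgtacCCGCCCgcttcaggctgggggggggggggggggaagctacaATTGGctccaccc
Capitals mark matches, on either strand, to 6 short motifs. These were the TATA box (TATAAA), the GC box (GGGCGG), the Ets core (AGGAAG), the Runx core (TGTGGT), the Foxo core (TGTTTAC) and the CCAAT box (CCAAT). No matches of different motifs overlapped in the windows shown. All 8 members matched the RefSeq table, with 9 windows in all since *Gimap8* has more than one start. The letters AGGAAG, used here for the Ets core, were present in 7 of the 9 windows, and in 29.5% of 32851 windows of this length over all genes. Other forms of the motifs were not searched, so a window without a match can still hold one. The Runx core was present in 3, against 14.0% of all windows, and the TATA box in 1, against 12.4%. The CCAAT box was present in 3, against 33.8%, and the GC box in 2, against 32.7%. The Foxo core was found in *Gimap3* alone, against 3.17% of all windows. The share of A and T ran from 38.8% in *Gimap9* to 56.4% in *Gimap6*, around the median of 47.6% over all windows. A match describes letters and is not evidence of binding, and no test was made of these shares.

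Of the other transcripts of the cluster, 4 were tested and 0 were called by the edgeR quasi-likelihood test, where 4.30% of all genes tested were called. At an unadjusted p under 0.05 there was 1 of the 4, *4833403J16Rik*, where 19.1% of all genes tested passed. *4833403J16Rik*, a non-coding transcript between *Gimap5* and *Gimap3*, had 9.75 and 8.70 CPM in WT and 14.6 and 15.0 CPM in cKO. The genotypes did not overlap, but the log2 change of 0.67 (SE 0.22) missed the threshold (edgeR adjusted p = 0.13), and 62.9% of its exonic bases are shared with *Gm44226* on the opposite strand. *Gm44226* had a log2 change of 0.27 (edgeR adjusted p = 0.470). *Gm28053* had 13 to 25 counts per library, against 284 or more for each Gimap gene, and a log2 change of 0.15 (edgeR adjusted p = 0.891). *Gm44262* had 1 count in a single library and was not tested.

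**Figure D4:**
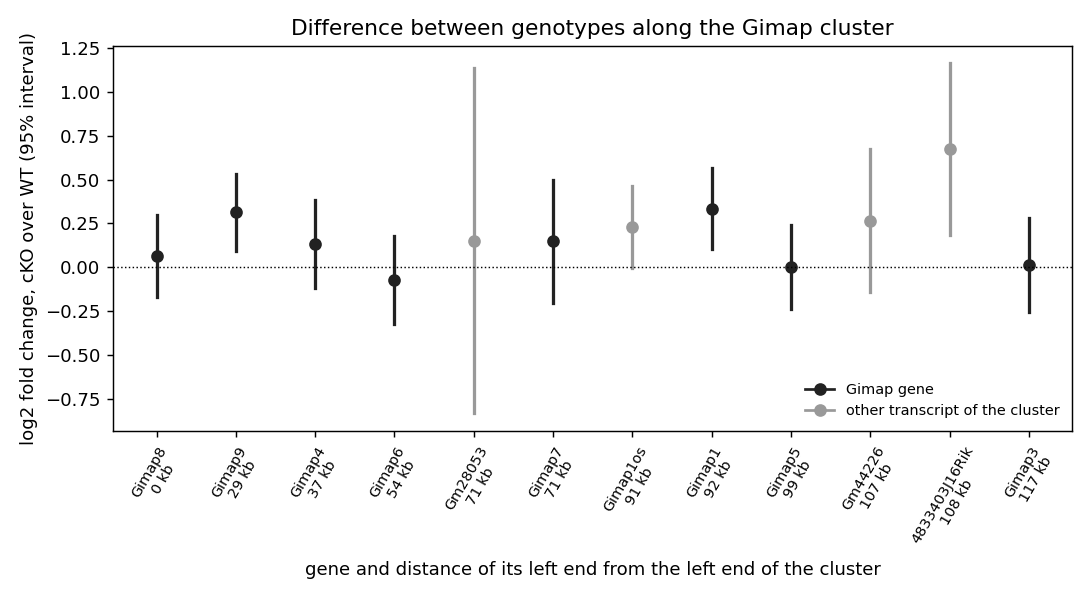
Log2 fold change (cKO over WT) with its 95% interval for each tested gene of the cluster, in order along the chromosome, with the distance of its left end from the left end of the cluster in kb. Gimap genes are black and other transcripts grey, and the intervals of *Gimap1*, *Gimap9* and *4833403J16Rik* lie above 0, with none called after adjustment over all genes.

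Within 500 kb of either end of the cluster the annotation holds 52 further genes, of which 51 were in the tables and 20 were tested, those inside the cluster included. Of these, 0 were called higher and 2 lower in the edgeR test, where 2.35% of all genes tested were called higher and 1.95% lower. *Igf2bp3*, which encodes an RNA-binding protein, had 22.4 and 38.4 CPM in WT and 9.49 and 9.74 CPM in cKO, and fell by 1.64 on the log2 scale (SE 0.28, edgeR adjusted p = 0.0142). *Malsu1*, which encodes a mitochondrial ribosome assembly factor, had 21.5 and 23.2 CPM in WT and 10.8 and 13.8 CPM in cKO, and fell by 0.86 (SE 0.20, edgeR adjusted p = 0.0484). *Malsu1* lies 303 kb and *Igf2bp3* 314 kb beyond the *Gimap3* end, and 1529 of their exonic bases overlap on opposite strands. In the other direction, *Zfp467*, which encodes a zinc finger protein, had 17.2 and 21.4 CPM in WT and 30.5 and 32.4 CPM in cKO, with a log2 change of 0.72 (SE 0.17) that narrowly missed the threshold (edgeR adjusted p = 0.0502). The median log2 fold change of the 20 neighbours was 0.11.

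Other genes of lymphocyte survival and quiescence were read beside the family, from a list of 36 that includes the Bcl2 family, the IL-7 receptor pathway and the ATG8 proteins. Of 35 tested, 1 was called higher and 1 lower, with a median log2 fold change of 0.05. Of all genes tested, 2.35% were called higher and 1.95% lower. *Il7r*, the IL-7 receptor chain that gives naive and memory T cells their survival signal, had 364 and 484 CPM in WT and 1048 and 694 CPM in cKO, and rose by 1.04 on the log2 scale (SE 0.20, edgeR adjusted p = 0.0257). *Ccr7*, a homing receptor of naive T cells, had 551 and 601 CPM in WT and 401 and 348 CPM in cKO, and fell by 0.62 (SE 0.11, edgeR adjusted p = 0.0199). *Gabarapl2*, the partner of GIMAP6, had a log2 change of 0.09 (edgeR adjusted p = 0.883), and *Gsk3b*, a kinase restrained by GIMAP5, had 0.21 (edgeR adjusted p = 0.292). The anti-apoptotic *Bcl2* had -0.15 (edgeR adjusted p = 0.453), and *Mcl1* had 0.17 (edgeR adjusted p = 0.471). The pro-apoptotic *Bbc3* had the highest log2 change of the list, 1.58 (SE 0.50, edgeR adjusted p = 0.127), with 12.0 and 20.7 CPM in WT and 73.8 and 21.2 CPM in cKO, so that cKO 1 alone stood well above WT.

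GIMAP genes are also expressed in other lymphocytes and in endothelial cells, and markers of other cells differed between the genotypes. In bulk libraries, fewer cells of a type and less RNA per cell cannot be told apart. The counts of called markers below stand beside 2.35% of all genes tested called higher and 1.95% called lower. The 8 B cell markers summed to 14.0 and 15.2 CPM in WT and 57.3 and 23.5 CPM in cKO, with 1 of 3 tested, *Pax5*, called higher. The defining marker *Cd79a* was low, with 4 to 55 counts, and highest in cKO 1. The 9 myeloid markers summed to 28.2 and 34.8 CPM in WT and 104 and 60.7 CPM in cKO, with *Lyz2*, *Cybb*, *S100a9* and *Ltf* of 7 tested called higher. The defining marker *Itgam* went the other way, with 14 and 10 counts in WT and 7 and 5 counts in cKO. Its log2 change of -0.85 was not called (edgeR adjusted p = 0.374). The 8 markers of CD8 T and NK cells summed to 145 and 150.1 CPM in WT and 57.5 and 57.6 CPM in cKO, with 5 of 7 tested called lower, among them *Nkg7*, which fell by 1.61 on the log2 scale, while *Cd8a* had 20 to 36 counts and was not called. Of 6 endothelial markers, *Pecam1*, which T cells also express, made up nearly all of a sum of 318 to 375 CPM and had a log2 change of 0.11 (edgeR adjusted p = 0.644), *Cdh5* had 0 to 9 counts, and 3 had no more than 3 counts in any library. The 6 erythroid and platelet markers summed to 90.8 and 269 CPM in WT and 9.49 and 195 CPM in cKO, with 0 of 3 tested called by edgeR and 0 at an unadjusted p under 0.05, *Hbb-bs* at 35 to 827 counts and *Pf4* at 0 to 4. The part of these cells in the Gimap values was not tested. The 8 T cell markers summed to 6712 and 6607 CPM in WT and 6884 and 6234 CPM in cKO, and 1 of them, *Thy1*, was called lower.

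To find genes with a like pattern, the log2 CPM of 6048 other genes with an average log2 CPM of at least 5 were centred and compared with the summed Gimap level over the 4 libraries. The nearest by root mean square distance were *Setd7* at 0.0044, *Grina* at 0.0049, *Nab1* at 0.0053, *Abhd13* at 0.0056 and *Parp11* at 0.0085. *Setd7*, for example, had 189 and 201 CPM in WT and 201 and 206 CPM in cKO. With 4 libraries and a nearly flat pattern this is a description of the values only.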

How the data were processed

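Splenic CD4+ T cells were profiled in 4 libraries, grouped by the genotype in their labels. The authors aligned reads of 50 bases to mm10 with HISAT2 2.1.0 and counted reads per gene with HTSeq 0.11.1, per the processing notes in the labels, and deposited raw counts per gene symbol. The annotation and strand setting of the counting are not given in the sources used here. The summary lines of the deposited tables were kept out of library sizes. They list reads without a gene (7495194 to 10363894 per library, more than the gene totals), reads with several alignments (1771260 to 2765265) and reads that fit more than 1 gene (1.75% to 1.84% of the gene total), none of which enter a gene's count.

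Counts were analysed in R 4.3.3 with edgeR 4.0.16. Genes were kept by filterByExpr and scaled by TMM, and genotype was tested by the quasi-likelihood F test, two-sided, with Benjamini-Hochberg adjustment over all 12403 genes tested and no covariate. The SE is the absolute log2 fold change divided by the square root of F. The variance behind F, the SE and the intervals draws on other genes, with 6.73 prior degrees of freedom of a total of 8.73 (medians). DESeq2 1.42.0, other scalings, other filters and left-out libraries were alternatives. The procedure was tested on simulated data. An exact permutation test of 2 against 2 cannot give a p under 0.333. Over all genes, replicates differed by more than sampling noise (chi-square per degree of freedom 2.83 in WT and 6.68 in cKO) and were kept apart.

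Gene models came from GENCODE M21 on GRCm38, the assembly of mm10, and coding sequences were aligned with Biopython 1.88. Plots were drawn with matplotlib 3.10.9. The Gimap genes and the lists were chosen with earlier results of these data known. Named genes were set by rule: all 8 Gimap genes, *Gimap1os* and genes whose exons overlap a member, *Satb1*, called members of each companion list, the defining markers of each cell type (1 is not reported here) and the 5 nearest patterns. *Gabarapl2*, *Gsk3b*, *Bcl2*, *Mcl1*, *Bbc3*, *Zfp467*, *Gm44226*, *Gm44262*, *4833403J16Rik*, *Xist*, *Ddx3y* and the called markers *Pax5*, *Cybb*, *S100a9*, *Ltf* and *Thy1* were named after their values were seen, and the motifs and the sequences shown were also chosen then.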

Additional observations from a re-analysis of the deposited data

How the results depend on the processing

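Of 96 values of the 8 genes under 12 alternatives, 89 kept direction and side of the threshold. The 5 sign changes were in *Gimap3*, *Gimap5*, *Gimap7* and *Gimap8*, and *Gimap1* and *Gimap9* passed the threshold without cKO 2. *Gimap5* was -0.0037 with no low-count filter. When a library was left out, the log2 fold change ran from 0.28 to 0.40 for *Gimap1*, -0.063 to 0.10 for *Gimap3*, 0.08 to 0.18 for *Gimap4*, -0.069 to 0.068 for *Gimap5*, -0.11 to -0.02 for *Gimap6*, -0.051 to 0.32 for *Gimap7*, -0.0078 to 0.14 for *Gimap8* and 0.27 to 0.36 for *Gimap9*. The number of Gimap genes called ran from 0 to 2, the latter without cKO 2, where 12.8% of all genes tested were called against 4.30% with all libraries, and was 0 under every other alternative. Without leaving out a library, the adjusted p of *Gimap1* ran from 0.0559 to 0.256 and that of *Gimap9* from 0.0649 to 0.342.

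The number of all genes called, 533, was 1367 with no low-count filter, 1044 in the edgeR exact test and 153 at an adjusted p under 0.01, and ran from 174 (without WT 2) to 1583 (without cKO 2) when a library was left out, with 1313 without cKO 1. With the replicate block it was 1165 and still held 0 Gimap genes. The labels do not say that a replicate number pairs mice. Libraries of the same number deviated from their group means with a correlation of 0.064 over all genes tested. With 2 libraries per genotype this is a single contrast, which cannot decide whether libraries of the same number are paired. The order of levels per kilobase changed for 3 genes with the longest transcript as the length. Why these counts shift was not tested.

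With 284 to 6551 counts per Gimap gene and library, replicates differed by more than counting noise. The fold intervals, from 0.80 to 1.48, leave room for differences of up to about that size.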
